A study of Mus musculus with 6 samples.

Results

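B lineage cells were a small group within the CD11b+ bone marrow cells of the femur and mandible. They were taken as the cells of cluster 6, at resolution 0.1 of the deposited clustering, whose label from the ImmGen reference began with "B cells". The rule found 866 of the 69776 kept cells, that is 203 femur-derived and 663 mandibular-derived cells. Of these, 858 had the plain B cell label and 8 the pro-B cell label. Single-cell RNA sequencing with 10x Genomics 3′ chemistry had been done on 3 femur and 3 mandible libraries from C57Bl/6 mice of 2 months, after positive selection with magnetic beads against CD11b, the product of Itgam. Femur replicate 1 was from a female and the other 5 libraries were from males, so sex is not balanced between the sites. By the labels the femur group held marrow flushed from femurs and tibiae, while the methods name femurs alone. The mandible marrow was flushed after the molars were extracted. Nothing in the labels says that the libraries of a site came from separate animals, and p-values measure the spread between these libraries, which may be technical.

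B cells form in the bone marrow in ordered steps. Ebf1 and Pax5 are transcription factors that set up and hold the B lineage programme, and Cd79a and Cd79b carry the signal of the B cell receptor. A pro-B cell joins its heavy chain gene with the recombinase Rag1 and Rag2 and the polymerase Dntt, and a pre-B cell pairs the heavy chain with the surrogate light chain of Vpreb1, Vpreb2 and Igll1. The light chain, kappa (Igkc) or lambda (Iglc genes), is joined next, and a maturing cell gains surface IgD (Ighd), CD20 (Ms4a1), CD23 (Fcer2a) and MHC class II.

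Promoters of 3 stage genes are shown because Igll1 is among the genes that define the early-marker cells described further on, Vpreb3 and Cd22 had unequal levels in early-marker and late-marker cells without defining them, and each window held a letter match to a motif that B cell factors bind. Each window runs from 250 bases before to 50 after the annotated start (RefSeq, GRCm38.p6). Capitals mark CCCNNGGG, a palindrome that EBF1 binds, or the octamer ATTTGCAT (ATGCAAAT on the other strand), which POU factors bind. The window of Igll1, for the surrogate light chain, is chr16:16863936-16864235 on the minus strand. The window of Vpreb3, a chaperone of immunoglobulin chains in early B cells, is chr10:75948050-75948349 on the plus strand. The window of Cd22, an inhibitory co-receptor of later B cells, is chr7:30878979-30879278 on the minus strand.
Igll1: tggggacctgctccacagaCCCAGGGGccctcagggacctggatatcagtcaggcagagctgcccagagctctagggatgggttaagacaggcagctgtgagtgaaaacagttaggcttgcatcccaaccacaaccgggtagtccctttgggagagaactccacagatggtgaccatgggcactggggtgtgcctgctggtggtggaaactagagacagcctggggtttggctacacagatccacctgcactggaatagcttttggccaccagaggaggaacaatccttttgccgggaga
Vpreb3: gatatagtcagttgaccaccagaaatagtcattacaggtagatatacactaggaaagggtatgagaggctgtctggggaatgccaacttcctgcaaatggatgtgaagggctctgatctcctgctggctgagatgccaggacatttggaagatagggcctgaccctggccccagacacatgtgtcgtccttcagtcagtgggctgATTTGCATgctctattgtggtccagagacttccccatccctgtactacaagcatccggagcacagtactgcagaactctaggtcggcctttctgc
Cd22: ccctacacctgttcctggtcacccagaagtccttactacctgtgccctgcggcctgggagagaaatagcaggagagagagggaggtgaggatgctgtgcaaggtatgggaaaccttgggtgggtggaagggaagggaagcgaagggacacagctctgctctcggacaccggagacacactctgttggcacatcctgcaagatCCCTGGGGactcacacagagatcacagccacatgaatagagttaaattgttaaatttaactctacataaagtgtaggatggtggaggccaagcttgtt
CCCNNGGG was in 13.7% and the octamer in 1.74% of all 32851 promoter windows of the same length, and in 15.4% and 1.97% of the 27025 genes with a window. Among the 6 genes for the surrogate light chain and recombination, CCCNNGGG was in 1, Igll1, and the octamer in 0. Among 11 genes of the late stage list with a window, CCCNNGGG was in 2, Cd22 and Bank1, and the octamer in 1, Ms4a4c. Among 10 genes of early receptors and factors, CCCNNGGG was in 2, Kit and Erg, and the octamer in 1, Vpreb3. Among 9 genes of B lineage identity, CCCNNGGG was in 0 and the octamer in 1, Blnk. Among 19 transcription factor genes, CCCNNGGG was in 6 and the octamer in 0, and among 17 genes of B cell receptor signalling they were in 4 and 2. A match is a run of letters and was not tested as a binding site.

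The cells carried the defining genes of the B lineage in every library. Ebf1, at chromosome 11:44617317-45008091 of mm10, had 5420, 6161 and 5468 UMIs per 1000000 UMIs of the summed cells (CPM) in the femur libraries and 6524, 5557 and 7777 in the mandible libraries, against a mean of 12.1 CPM over all other kept cells. Igkc, the constant region of the kappa chain at chromosome 6:70726435-70726966, had 4073, 4945 and 2588 CPM in the femur and 4734, 4061 and 5858 in the mandible. Bach2, a transcriptional repressor at chromosome 4:32238804-32586108, had 2631, 3312 and 2809 CPM in the femur and 3979, 3592 and 4940 in the mandible. Every library stood far above the other kept cells in these 3 genes. Cd79a, at chromosome 7:24897381-24902197, ranged from 1406 to 2774 CPM over the 6 libraries. Pax5, at chromosome 4:44524757-44710487, ranged from 835 to 1291 CPM. These 5 genes were the markers given for the cluster, and their levels against other cells are a description, since the cells were clustered on their expression.

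The share of cells with at least 1 UMI was compared after each cell had been drawn down to 1000 UMIs, which left out 1 of the 866 cells. Ebf1 was then found in 84.1% to 95.2% of the B lineage cells of a library, Ighm in 90.9% to 97.6%, Cd79a in 69.4% to 87.9% and Pax5 in 56.8% to 68.4%. In 1000 cells drawn per library from cluster 0, of whose cells 99.8% had a neutrophil label, Ebf1 was found in at most 0.202%, Cd79a in at most 0.300% and Pax5 in 0 cells at the same depth. The median depth before drawing was 2839 to 5092.5 UMIs in the B lineage cells of a library and 8634 to 13183 in the cluster 0 cells. Ighm had a higher floor in cluster 0, of 2.20% to 5.90%.

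**Figure D1:**
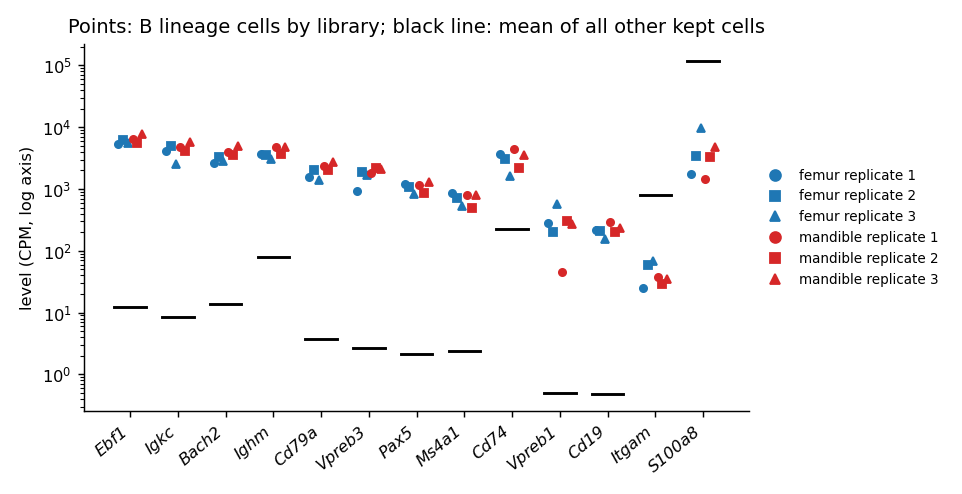
Levels of 13 genes on a logarithmic axis in UMIs per 1000000 (CPM). Each point is the sum over the B lineage cells of 1 library (blue femur, red mandible, symbols for replicates), and the black line is the mean over libraries of all other kept cells. B lineage genes lie far above the line, while Itgam and S100a8 lie below it in all 6 libraries.

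A second deposited reference label was mixed. Of the 866 cells, 522 (60.3%) were labelled B cells by the MouseRNA reference, 250 (28.9%) T cells and 94 another type. Defining genes of T and NK cells were at or near 0: Cd3e, Ncr1, Gzma and Il2rb had 0 UMIs in the 4347652 UMIs of all the cells, and the 13 genes of that list summed to 0 to 10.7 CPM per library, below the 31.8 to 67.4 CPM of other kept cells. Dendritic cell genes Cd209a, Xcr1, Clec9a and Klk1 also had 0 UMIs. The 9 genes of that list summed to 268 to 590 CPM, above the 33.8 to 81.2 CPM of other kept cells. Tcf4, which B cells express too, gave 221 to 524 CPM of the sum in the B lineage cells. Macrophage genes summed to 2.52 to 121 CPM, and mast cell and basophil genes to 0 to 37.8 CPM.

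RNA of Itgam, whose protein is the target of the selection, was low, and protein was not measured here. It had 24.9, 59.5 and 67.8 CPM in the femur-derived and 37.9, 29.4 and 34.8 CPM in the mandibular-derived B lineage cells, against a mean of 803 CPM in other kept cells. At 1000 UMIs it was found in 0% to 6.82% of the B lineage cells of a library and in 57.9% to 69.8% of the cluster 0 cells. Before drawing, the B lineage share ran from 8.62% in mandible replicate 2 to 27.6% in femur replicate 2. Itgam was 1 of the 9 genes of the B-1 cell list, whose members varied. Cd5, a surface marker of B-1a cells, had 9 UMIs in all. Sox5, a transcription factor gene, had the most with 512 UMIs, followed by Itgam with 168, Cd9 with 134, Spn (CD43) with 125, Bhlhe41 with 56, Plscr1 with 40, Ctla4 with 26 and Zbtb32 with 13. Sox5 and Bhlhe41 were at a mean of 119 and 16.0 CPM in the B lineage cells against 1.38 and 0.162 CPM in other kept cells, while Cd9 was lower, at 29.8 against 569 CPM.

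Neutrophil RNA was present in the B lineage cells at a low level. The 20 neutrophil genes summed to 5499, 11044 and 26394 CPM in the femur and 4794, 9545 and 12845 CPM in the mandible, against 297439 to 404500 CPM in other kept cells. Femur replicate 3 was the highest. S100a8 was found in 75.9% to 97.7% of the cells of a library at 1000 UMIs and in 100% of the cluster 0 cells. In the median B lineage cell of a library, 0.400% to 1.29% of UMIs came from the list, and 12 of the 866 cells had over 10%. The 143 cells of cluster 6 with other labels, 138 of them neutrophil labels, were not counted as members, and their median share was 16.4% to 23.9%. A further 347 cells with a B cell label lay outside cluster 6, of which 32 had the plain label, and they were not members either.

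No cell barcode of the B lineage cells was shared between any 2 libraries, while 15 to 70 barcodes of kept cells were shared per pair of libraries. The cells of a library summed to 240599 to 1562361 UMIs. The median mitochondrial share was 2.04% to 3.96%, and 60 of the 866 cells had over 3 times the median UMIs of their library, 39 of them in mandible replicate 2. Doublets were not called here. The share of kept cells, the pro-B label, the phases and the expression comparison between the sites were repeated without these 60 cells. The marker classes, the light chain shares and the comparison of site effects with other kept cells were not.

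The first comparison between the sites was of how many of the kept cells were B lineage cells. They were 0.351%, 1.06% and 0.193% of kept cells in the femur (Wilson 95% intervals 0.254% to 0.486%, 0.889% to 1.26% and 0.144% to 0.259%). In the mandible they were 0.965%, 3.98% and 2.99% (0.779% to 1.20%, 3.59% to 4.41% and 2.63% to 3.39%). The mean share was 0.534% ± 0.461 for femur-derived and 2.64% ± 1.53 for mandibular-derived libraries (SD, n = 3 per site). Mandible replicates 2 and 3 lay above every femur library, while mandible replicate 1 lay just below femur replicate 2. The difference of 2.11 percentage points had p = 0.20 in a 2-sided exact permutation test, in which 3 against 3 libraries cannot go below 0.10. The intervals cover counting error alone, and the selection for CD11b can set such shares.

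**Figure D2:**
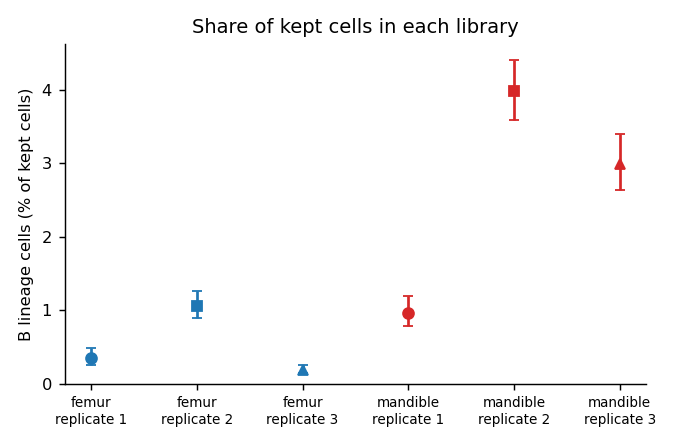
B lineage cells as a percentage of kept cells in each library, with 95% Wilson intervals for counting error. Mandible replicates 2 and 3, at 3.98% and 2.99%, lie above all femur libraries, and mandible replicate 1 overlaps femur replicate 2.

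The cells were next divided by stage markers. A cell drawn down to 1000 UMIs counted as early-marker where it had a UMI of Vpreb1, Vpreb2, Igll1, Rag1, Rag2 or Dntt and none of Ighd, Ms4a1, Fcer2a, Cr2, Tnfrsf13c (the BAFF receptor) or Bank1, as late-marker in the opposite case, and otherwise as both or neither. With this rule late-marker cells were the largest class in every library, with 66.7%, 56.9% and 47.7% in the femur and 62.7%, 40.8% and 50.6% in the mandible. Where 2 UMIs were asked for in place of 1, cells with neither marker were the largest class in 3 libraries, at 50% in femur replicate 3, 53.7% in mandible replicate 2 and 49.8% in mandible replicate 3, against 38.6%, 33.3% and 38.1% late-marker cells. Early-marker cells, by 1 UMI, were 13.9%, 17.1% and 22.7% in the femur and 9.64%, 20.4% and 16.0% in the mandible. Cells with neither were 19.4%, 23.6% and 20.5% in the femur and 20.5%, 34.2% and 28.6% in the mandible. Cells with both were at most 9.09% of a library, and femur replicate 1 had 0 of 36, which at this depth allows a share of up to 8.33%. The sizes of these last classes rest on the depth. With unthinned counts, cells with both were 11.1%, 21.1% and 38.6% in the femur and 24.1%, 17.5% and 23.3% in the mandible, and cells with neither were 2.78%, 4.07% and 0% in the femur and 4.82%, 11.2% and 6.03% in the mandible. The floor measured in cluster 0 cells was at most 0.1% for the early class and 3.6% to 7.62% for the late class, in which Bank1 alone was found in 3.50% to 7.21%.

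No difference between the sites in the 4 classes was larger than the spread of the libraries. Set against the femur, the mandible mean was apart by -2.54 percentage points for early-marker, -5.73 for late-marker, 1.69 for both and 6.59 for neither cells, with exact permutation p of 0.50, 0.50, 0.50 and 0.20 and an adjusted p of 0.50 for each. The sign of the early-marker difference turned with unthinned counts, where it was 2.45 points. In that setting the difference for neither cells was 5.07 points and the sites did not overlap. Its unadjusted exact permutation p was 0.10, the lowest that 3 against 3 libraries can give.

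**Figure D3:**
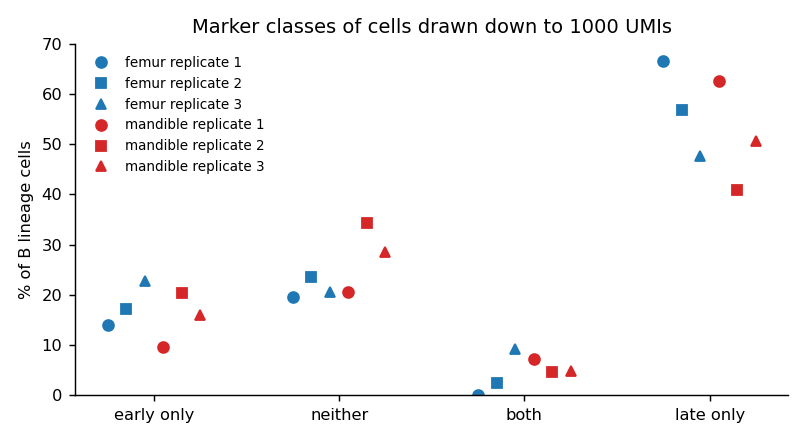
Percentage of B lineage cells of each library in the 4 marker classes, after drawing each cell down to 1000 UMIs. Late-marker cells are the largest class in all 6 libraries (40.8% to 66.7%), and the sites overlap in every class.

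The classes were then described with 28 chosen genes that did not define them, and many of these had unequal levels. The share of all genes with the same order in 6 of 6 libraries was not counted. Lef1, a transcription factor of early B cells, had 691 CPM over the pooled early-marker cells and 44.6 CPM over the late-marker cells, and was higher with early markers in 6 of 6 libraries. Il7r, the receptor for IL-7 on which early B cells grow, had 408 against 58.7 CPM. Vpreb3 had 3434 against 1596 CPM, Sox4 803 against 164, Myb 513 against 108 and Ebf1 10408 against 5646, each higher with early markers in 6 of 6 libraries. In the other direction Cd74, the MHC class II invariant chain, had 171 CPM in early-marker and 6115 in late-marker cells. H2-Aa had 32.9 against 1045 CPM and Cd22 26.3 against 209. Fcmr (the IgM Fc receptor) had 59.2 against 425 and Ltb 59.2 against 458. Each was lower with early markers in 6 of 6 libraries. For H2-Aa, Cd22, Fcmr and Ltb the early-marker values rested on 5, 4, 9 and 9 UMIs in all. Femur replicate 1 held 5 early-marker cells, so the order of these genes within a single library is uncertain. Bcl2, which blocks cell death, had 6.58 against 155 CPM, with the first value from 1 UMI. Pax5, with 928 against 1347 CPM, and S1pr1, an exit receptor with 138 against 207 CPM, did not have the same order in all libraries. Nor did Cd79a, Bach2, Top2a, Pcna, Stmn1 and Mzb1. Cd72 and Bcl2 were lower with early markers in 5 libraries and higher in 0. These are pooled levels given as a description, since cells of 1 library share their source.

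**Figure D4:**
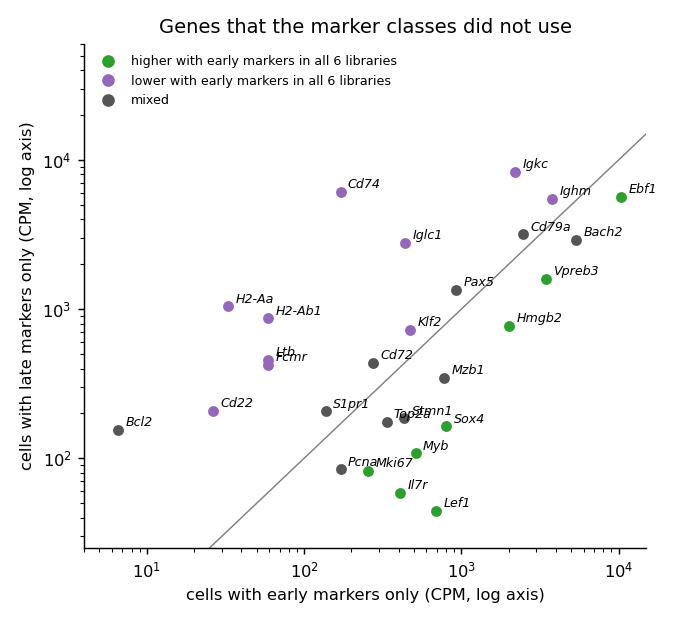
Levels of 28 chosen genes in early-marker (horizontal) and late-marker (vertical) B lineage cells, both on logarithmic axes. Units are UMIs per 1000000 of the pooled UMIs after drawing to 1000 per cell. Lef1, Il7r and Sox4 lie below the line of equal level and Cd74, H2-Aa and Cd22 above it, with the same order in all 6 libraries. The early-marker values of H2-Aa and Cd22 rest on 5 and 4 UMIs.

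Cells with neither kind of marker had the highest pooled level of dividing-cell genes. Mki67, which marks dividing cells, had 457 CPM in them, 257 in early-marker and 82.2 in late-marker cells. Top2a, a topoisomerase of dividing cells, had 741, 336 and 176 CPM in the same order. Pooling weighs libraries by their cells, and mandible replicate 2 held 119 of the 247 cells with neither and 142 of the 426 late-marker cells. By the deposited phase calls, 28.6% to 55.2% of the cells with neither were in S or G2M, against 14.3% to 32.4% of early-marker and 7.69% to 19.0% of late-marker cells, and they were above both of these classes in 6 of 6 libraries. Their Il7r level of 413 CPM was close to that of early-marker cells. The phase calls had been made on cells of unequal depth and were not thinned here.

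Over all B lineage cells, G1 cells were 86.1%, 78.0% and 77.3% in the femur and 85.5%, 70.1% and 80.6% in the mandible. G2M cells were 13.9%, 14.6% and 15.9% in the femur and 8.43%, 21.0% and 10.8% in the mandible. S cells were 0%, 7.32% and 6.82% in the femur and 6.02%, 8.91% and 8.62% in the mandible, and the 0 of 36 cells in femur replicate 1 allows a share of up to 8.33%. The sites overlapped in each phase, and the exact permutation p was 0.90 for G1, 0.30 for S and 0.80 for G2M, with an adjusted p of 0.90 for each. Mki67 was found in 8.43% to 18.2% of B lineage cells at 1000 UMIs and in 1.6% to 6.66% of cluster 0 cells. The pro-B label was on 1 cell of femur replicate 3, 4 of mandible replicate 2 and 3 of mandible replicate 3, with means of 0.758% ± 1.31 in the femur and 0.814% ± 0.709 in the mandible (SD, n = 3, exact permutation p = 1.00). Of the receptors of earlier progenitors, Kit had 22 UMIs and Cd34 0 UMIs in all cells. Flt3 had 100 UMIs, with 41.6, 13.1 and 39.3 CPM in the femur and 20.2, 31.4 and 11.0 in the mandible, against 2.73 CPM in other kept cells.

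Genes for the surrogate light chain and recombination were mostly lowest in mandible replicate 1. Vpreb1, at chromosome 16:16868403-16870843, had 278, 205 and 564 CPM in the femur and 45.4, 302 and 274 in the mandible. Dntt, which adds bases at heavy chain joints and lies at chromosome 19:41029275-41059525, had 129, 66.8 and 118 CPM in the femur and 2.52, 123 and 116 in the mandible. Igll1 had 133, 107 and 271 CPM in the femur and 53.0, 281 and 206 in the mandible. In all 3 genes mandible replicate 1 was the lowest of the 6 libraries. Rag1, part of the recombinase, did not share this, with 58.2, 138 and 164 CPM in the femur and 141, 119 and 155 in the mandible. Vpreb3 had 943, 1856 and 1674 CPM in the femur and 1825, 2189 and 2129 in the mandible, where femur replicate 1 was the low library.

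Late genes varied between the libraries of a site, and not all in the same order. Bank1, an adaptor of B cell receptor signalling, had 1966, 826 and 446 CPM in the femur and 919, 371 and 690 in the mandible. Ms4a1 had 877, 709 and 532 CPM in the femur and 808, 487 and 788 in the mandible. H2-Aa had 1176, 758 and 307 CPM in the femur and 1116, 312 and 549 in the mandible. Femur replicate 1 and mandible replicate 1 were the highest of the 6 libraries and femur replicate 3 and mandible replicate 2 the lowest in all 3 genes, as they were in the late-marker share. Bank1 and Ms4a1 define that share, while H2-Aa does not. Other late genes had other orders. Cd72, an inhibitory co-receptor, had 162, 260 and 307 CPM in the femur and 285, 346 and 335 in the mandible, where femur replicate 1 was the lowest. Fcer2a had 79.0, 121 and 53.5 CPM in the femur and 116, 51.2 and 42.4 in the mandible, where femur replicate 2 was the highest. The 9 MHC class II genes summed to 2659 to 7564 CPM in the femur and 3433 to 7937 in the mandible. The 10 plasma cell genes summed to 732 to 792 CPM in the femur and 843 to 1035 in the mandible, without overlap, and Mzb1 gave a large part of it. Genes of secreting cells were scarce: Jchain had 12 UMIs, Prdm1 7 and Tnfrsf17 1 in all cells, while Mzb1, which B cells also use, had 229 to 418 CPM in the femur and 422 to 483 in the mandible.

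Immunoglobulin heavy chain RNA was mostly IgM. Ighm, at chromosome 12:113418558-113422730, had 3741, 3620 and 3069 CPM in the femur and 4726, 3678 and 4791 in the mandible. Ighd, at chromosome 12:113406604-113416324, had 245, 168 and 161 CPM in the femur and 250, 97.3 and 171 in the mandible. Switched classes were rare, with 43 UMIs of Ighg2b, 8 of Ighg3 and 5 of Igha. Variable genes were sparsely counted by the 3′ reads: 58 of 185 Ighv genes had 142 UMIs in all, 74 of 160 Igkv genes 560 UMIs and all 3 Iglv genes 189 UMIs. The most counted were Igkv1-117 with 52, Igkv1-110 with 49 and Igkv19-93 with 42 UMIs for kappa, Iglv1 with 114 for lambda and Ighv3-6 with 10 for the heavy chain. Reads can be split between near-identical variable genes, and between Iglc2 and Iglc3, so single-gene values of these are uncertain.

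UMIs of kappa and lambda constant genes were found together in many cells. Such UMIs do not show whether either chain was joined, which was not tested, and doublets were not called. The Iglc genes took 43.8%, 33.4% and 43.7% of light chain constant UMIs in the femur and 49.8%, 33.9% and 37.4% in the mandible, with means of 40.3% ± 5.99 and 40.4% ± 8.34 (SD, n = 3; exact permutation p = 1.00). At 1000 UMIs, 38.6% to 59.0% of the cells of a library had UMIs of both kappa and lambda, 21.7% to 28.5% of kappa alone, 7.32% to 16.7% of lambda alone and 8.33% to 27.3% of neither. Of the 637 cells with at least 10 light chain UMIs before drawing, 79 had over 90% lambda, 158 under 10% lambda and 400 lay between. In cluster 0 cells Igkc was found in at most 0.200% and Iglc1 in at most 0.1%. Iglc1, at chromosome 16:19061618-19062071, had 910, 1063 and 639 CPM in the femur and 2522, 859 and 1578 in the mandible. Its log2 fold change (mandible over femur) was 0.90 ± 0.32 (SE, edgeR, adjusted p = 1.00), the sites overlapped, and without mandible replicate 1 it was 0.44. In late-marker cells Iglc1 had 2793 CPM and Igkc 8357, and in early-marker cells 441 and 2204.

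Expression was then compared between the sites over all genes, with the counts of the B lineage cells summed per library and the edgeR quasi-likelihood test. Of 6927 genes tested, 0 passed a false discovery rate of 0.05, which is 0%, and DESeq2 called 0 as well. An unadjusted edgeR p under 0.05 was reached by 80 genes higher in the mandible (1.15%) and 152 lower (2.19%), and by 106 genes in all with DESeq2. The libraries of the sites did not overlap for 376 genes higher in the mandible (5.43%) and 251 lower (3.62%). The genes below are given as values, by a rule that takes the 5 with the smallest p in each direction among genes of at least 50 CPM without overlap. None of them passed the adjustment (adjusted edgeR p of 1.00 for each). Without the filter on low counts mt-Nd6 and St6galnac3 passed it, with adjusted edgeR p of 0.0143 and 0.0219.

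The 5 genes with higher values in the mandible were Rbm38, Mmp8, Dok3, Dusp2 and Lrp10. Rbm38, an RNA-binding protein gene at chromosome 2:173020498-173034734, had 41.6, 58.1 and 64.2 CPM in the femur and 109, 125 and 95.8 in the mandible (log2 fold change 0.96 ± 0.26, SE). Dok3, an adaptor that restrains B cell receptor signalling, lies at chromosome 13:55523231-55529296. It had 137, 155 and 150 CPM in the femur and 240, 213 and 277 in the mandible (0.69 ± 0.21). Dusp2, a phosphatase of MAP kinases at chromosome 2:127336159-127338376, had 158, 167 and 111 CPM in the femur and 232, 235 and 243 in the mandible (0.66 ± 0.22). The 3 mandible values of Dusp2 lay close together. Lrp10, a receptor gene, had 42.8 to 62.4 CPM in the femur and 87.7 to 100 in the mandible (0.73 ± 0.25). Mmp8, a neutrophil collagenase, had 17.8 to 46.5 CPM in the femur and 50.5 to 89.9 in the mandible (1.06 ± 0.32), against 2070 CPM in other kept cells. Its value was 0.51 without the 60 cells of high UMIs and 0.23 over all cells of cluster 6, which include the 138 with neutrophil labels. Rbm38 was at 0.59 over all cells of cluster 6.

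The 5 genes with lower values in the mandible were mt-Nd6, Mfsd4a, St6galnac3, Lef1 and Pvt1. Lef1, at chromosome 3:131110471-131224356, had 407, 258 and 360 CPM in the femur and 114, 225 and 188 in the mandible (log2 fold change -0.93 ± 0.26, SE). Among late-marker cells alone, classed on unthinned counts, the value was 0.77, with the opposite sign, and Lef1 had its highest pooled level of the 4 classes in the early-marker cells. mt-Nd6, the mitochondrial gene on the strand opposite mt-Nd5, had 104, 63.9 and 50 CPM in the femur and 42.9, 27.5 and 15.3 in the mandible (-1.46 ± 0.37). Mfsd4a, a transporter gene at chromosome 1:132022806-132068062, had 141, 107 and 71.4 CPM in the femur and 50.5, 60.2 and 34.8 in the mandible (-1.15 ± 0.30). St6galnac3, a sialyltransferase gene, had 57.1 to 183 CPM in the femur and 40.4 to 47.4 in the mandible (-1.27 ± 0.33), and without femur replicate 1 its value was -0.81. Pvt1, a long noncoding RNA next to Myc, had 53.5 to 95.6 CPM in the femur and 21.2 to 42.9 in the mandible (-1.15 ± 0.33), and was at -0.68 over all cells of cluster 6. Femur replicate 1, the female library, was the highest of the 6 libraries in all 5 of these genes. Without it mt-Nd6 was at -1.20, Mfsd4a at -0.95, Lef1 at -0.78 and Pvt1 at -0.91.

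**Figure D5:**
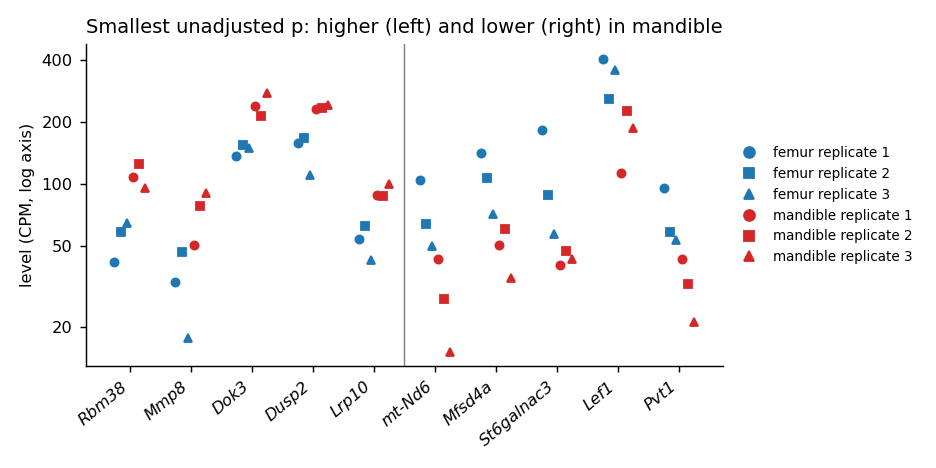
Levels (UMIs per 1000000, logarithmic axis) of the 5 genes with the smallest unadjusted p in each direction, with 1 point per library (blue femur, red mandible). The sites do not overlap in any of these genes, which the rule required, and none passed the adjustment over 6927 genes.

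The lists of B cell genes are given by their counts. Of 14 genes of B lineage identity, all tested, 12 had a log2 fold change above 0, with a median of 0.31 against -0.01 over all genes, and 3 had an unadjusted edgeR p under 0.05, all higher in the mandible, where 1.15% of all genes tested had such a p: Bach2 (0.49 ± 0.21, SE), Ly6d (0.49 ± 0.22), a surface marker of B cell commitment, and Cd79a (0.47 ± 0.22). Bach2 and Pou2af1, a co-activator of octamer factors, did not overlap between the sites and were higher in the mandible, against 5.43% of all genes. Ly6d and Cd79a overlapped. The summed level of the list was 21613, 24779 and 18267 CPM in the femur and 27279, 22979 and 31137 in the mandible, so that the sites overlapped as well. Neutrophil RNA was highest where this sum was lowest, in femur replicate 3, and its part in the sum was not tested. Fitted without the neutrophil genes, Bach2 was at 0.49, Ly6d at 0.49 and Cd79a at 0.47. These genes summed to 4794 to 26394 CPM in a library, so leaving them out could move such values little. That fit does not test the part of neutrophil RNA. Without femur replicate 3 they were at 0.47, 0.35 and 0.37.

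Of 20 transcription factor genes of the B lineage, 3 had an unadjusted edgeR p under 0.05 and were higher in the mandible, namely Bach2, Tcf3 (0.49 ± 0.21, SE), an E protein upstream of Ebf1, and Sox4 (0.54 ± 0.23), and Lef1 alone was lower, against 1.15% and 2.19% of all genes. The median was 0.18. Sox4, which pro-B cells need, had 187, 328 and 264 CPM in the femur and 386, 401 and 389 in the mandible, without overlap. Of the 6 genes of the surrogate light chain and recombination, Vpreb2 alone had a p under 0.05, with 26.1 to 57.1 CPM in the femur and 5.05 to 25 in the mandible (-0.93 ± 0.42, SE), and -0.60 without femur replicate 3. The median of these 6 was -0.20. In 4 libraries with the number in the library names as a replicate block, Vpreb1 was at -1.32 (adjusted edgeR p of 0.041). The same 4 libraries without the block gave 0 calls.

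Of 18 late stage genes, 0 higher and 2 lower ones had an unadjusted edgeR p under 0.05, against 1.15% and 2.19% of all genes. These were Cr2, the complement receptor CD21, with 37.8 to 53.5 CPM in the femur and 18.6 to 31.4 in the mandible (-0.89 ± 0.32, SE), and Cxcr5, the receptor for the follicle chemokine CXCL13, with a value of -1.02 ± 0.40 and overlapping sites. Cxcr5 had 116 CPM in femur replicate 1 and 21.2 to 57.1 in the other libraries, and without femur replicate 1 its value was -0.53. Of the 22 B cell receptor signalling genes, Cd79a was higher and Cr2 lower by that p, with a median of 0.11. None of the 9 MHC class II genes had a p under 0.05 (edgeR), and their median was -0.21. The 16 S phase and 16 G2M genes also had 0 with a p under 0.05 in edgeR. Of the 12 survival genes, 9 were tested and Bcl2l11, which promotes cell death, was the 1 with a p under 0.05, at 0.84 ± 0.38 (SE).

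Values of the neutrophil list moved with the library and the cells left in. Of its 15 tested genes, 1 higher (Mmp8) and 6 lower ones (Camp, Ngp, Ltf, Lcn2, Chil3 and Csf3r) had an unadjusted edgeR p under 0.05, against 1.15% and 2.19% of all genes. The 6 lower ones passed the adjustment in 4 libraries with the number in the library names as a replicate block. The same 4 libraries without the block gave 0 calls. Camp, a granule peptide, had 378, 723 and 1810 CPM in the femur and 235, 319 and 721 in the mandible (-1.21 ± 0.46, SE), and without femur replicate 3 the value was -0.41. Ngp, another granule gene, was at -1.06 ± 0.46, and at -0.08 without femur replicate 3. Ltf, Lcn2 and Chil3 were then at -0.30, -0.16 and -0.45, while Csf3r, the receptor for G-CSF, was at -1.13 against -1.35 in all libraries. With all libraries but without the 8 cells of the pro-B label, Camp was at -0.66 and Ngp at -0.40, and without the 60 cells of high UMIs they were at -0.70 and -0.51. Csf3r moved the other way, to -1.82 and -1.60. In other kept cells the values were -0.03 for Camp and -0.06 for Ngp. Of the 16 tested immediate early genes, which respond quickly to stimuli, 0 higher and 3 lower ones had an unadjusted edgeR p under 0.05, against 1.15% and 2.19% of all genes, with a median of -0.08 over the list. Jun was at -0.52 ± 0.24 and Egr3 at -1.42 ± 0.55 (SE), and without femur replicate 1 they were at -0.28 and -0.88. Dusp1, a phosphatase gene, had the smallest p, with 50.8 to 83.1 CPM in the femur and 22.0 to 33.9 in the mandible (-1.23 ± 0.31, SE), and it was also abundant in other kept cells, at 449 CPM. It was at -0.65 in late-marker cells, classed on unthinned counts, and at -0.35 over all cells of cluster 6.

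Finally the site effect in the B lineage cells was set against that in all other kept cells of the same libraries. With limma on the difference of log2 CPM, 0 of 6927 genes passed a false discovery rate of 0.05 and 351 had an unadjusted p under 0.05. Among the named genes, Rbm38 had a site value of 0.96 in B lineage cells and 0.06 in other cells, Dok3 0.69 and 0.09, and Lrp10 0.73 and -0.12. Dusp2 had 0.66 and 0.61, mt-Nd6 -1.46 and -0.95, Mfsd4a -1.15 and -1.27, and Mmp8 1.06 and 0.35, so that the other cells gave values of the same sign. St6galnac3 had -1.27 and 0.46, and Pvt1 -1.15 and 0.28, with the opposite sign in the other cells. For Lef1 the other cells gave 2.33, and these cells held the B-labelled cells outside cluster 6, so that their part in that value was not told apart. None of these differences passed the adjustment (adjusted limma p of 0.945 or higher).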

How the data were processed

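Single-cell RNA sequencing was done on 6 libraries of CD11b+ marrow cells. The authors deposited raw counts (UMIs per gene and barcode) made with Cell Ranger on mm10; the processing notes name version 7.0.1 and the matrix header 7.1.0. The authors deposited metadata with UMI counts per cell, the mitochondrial share in percent and other values such as clusters, reference labels and phases (a score-based call). They kept cells by genes per cell (601 to 5999 in the file) and mitochondrial share (at most 19.8%), integrated and clustered them. The deposited marker table, which holds their fold changes and p-values for clusters, was not used.

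Counts of members were summed per library and tested with edgeR 4.0.16 (quasi-likelihood, default filter, TMM, no covariate, false discovery rate 0.05); DESeq2 1.42.0 was an alternative. Differences of site effects used limma 3.58.1 (prior count 2). Shares were tested with 2-sided exact permutation tests and Benjamini-Hochberg adjustment within each family. Cells were thinned to 1000 UMIs where detection was compared. CPM are per 1000000 UMIs, not divided by length. Members summed to 240599 to 1562361 UMIs per library. Genes were named by a fixed rule: the most counted, the 5 with the smallest p in each direction (at least 50 CPM, no overlap), the immunoglobulin genes and the genes of 28 lists, of which those shown carry the text. The members and lists were chosen with earlier results of these data known. Positions are from GENCODE vM21 (mm10) and promoters from RefSeq (GRCm38.p6). Replicate numbers were not used as a block in the main fit. The labels do not say that a number marks a shared animal, and deviations of same-numbered libraries correlated at -0.03 to 0.24 for titles and at 0.03 and 0.33 for the 2 shared library numbers, which leaves unknown whether the latter mark shared mice.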

Additional observations from a re-analysis of the deposited data

How the results depend on the processing

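Of 18 alternatives for the expression comparison, 15 called 0 genes, among them DESeq2, library sizes alone, all cells of cluster 6 and each library left out (0 to 0 genes, with 147 to 411 genes at an unadjusted p under 0.05). Without a filter on low counts 26 of 16808 genes passed, 5 higher and 21 lower, among them Xist and Tsix (the female library is a femur one), Iglc1 and Amelx, which were higher, and mt-Nd6, St6galnac3, AY036118, Camp, Ltf, Lcn2, Ngp and Csf3r, which were lower. With the replicate number of the titles as a block 2 genes passed, both lower. These were AY036118 (-2.05, adjusted edgeR p of 0.000321) and Gm31243 (-1.38, 0.0299). With the library number as a replicate block in the 4 libraries that share one, 13 passed, all lower. They included S100a8, S100a9 and the 6 neutrophil genes with an unadjusted edgeR p under 0.05 named above. These 6 were at -1.75 (Ngp) to -2.14 (Chil3), with adjusted edgeR p of 2.57e-05 for Camp to 0.0131 for Csf3r. The other genes were Vpreb1 (-1.32, adjusted edgeR p of 0.041), Hist1h2ap (-0.98, 0.023), Hist1h2ae (-0.93, 0.0367), Lyz2 and St3gal5. The same 4 libraries without the block, a fit added after the data were seen, gave 0 calls. Values for the 6 neutrophil genes were then -1.81 to -2.18. Of the 5 genes named as lower in the mandible, mt-Nd6 was at -0.72, Mfsd4a at -0.67, St6galnac3 at -0.71 and Pvt1 at -0.58 with this block. They were at -0.86, -0.72, -0.77 and -0.66 in the same 4 libraries without it. These libraries leave out both femur replicate 1 and mandible replicate 3. Cxcr5 was at -0.22, Jun at -0.18, Egr3 at -0.39 and AY036118 at -1.04 with the block. Neither the labels nor the methods say what a shared library number marks, and whether it marks a shared mouse was not tested.

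The share of kept cells kept its direction in all 11 alternatives, at 1.44 to 2.95 percentage points with each library left out and 1.84 as the mean within the 2 pairs of the replicate block, whose differences of -0.094 and 3.78 had opposite signs. The early-marker difference reversed with unthinned counts (2.45 points) and with 2 UMIs in place of 1 (0.22), and ranged from -5.07 to 0.31 with each library left out, where leaving out mandible replicate 1 turned it. The share with both markers reversed with unthinned counts (-1.99) and ranged from -0.24 to 4.31, turned by femur replicate 1. The pro-B label difference ranged from -0.32 to 0.81, turned by femur replicates 1 and 2 and mandible replicates 2 and 3. The G1 difference ranged from -5.12 to 2.60, turned by leaving out femur replicate 1 or mandible replicate 2. The G2M difference ranged from -5.21 to 1.07, turned by mandible replicate 1. Late-marker (-11.4 to -0.45), neither (3.37 to 10.2) and S (0.78 to 4.44) differences kept their direction. The difference of site effects called 0 genes in all 8 alternatives. Of 31 genes given with values, Lef1 changed sign, to 0.77 in late-marker members. With 36 to 348 cells per library, genes of low count limit what these sums can show.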

Other observations

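Enamel genes were counted in the B lineage cells of the mandible. Amelx, which encodes amelogenin, the main protein of forming enamel, had 0 CPM in all 3 femur libraries and 2.52, 2.56 and 68.7 CPM in the mandible libraries, that is 86 UMIs in all. Mandible replicate 3 held most of them. Over all other kept cells Amelx had a mean of 47.0 CPM, taken over the libraries of both sites. Ambn, another enamel matrix gene, had 8 UMIs in the B lineage cells and a mean of 7.19 CPM in other kept cells. The 13 stromal, bone and tooth genes summed to 10.7 to 20.8 CPM in the femur-derived and 10.1 to 88.2 CPM in the mandibular-derived B lineage cells, with Dspp, Amtn and Klk4 at 0 UMIs. In the other kept cells of a library this sum was 20.3 to 459 CPM.

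Gm42418, a noncoding gene among the 20 with the most UMIs, varied widely between libraries of both sites, with 22627, 25885 and 4240 CPM in the femur and 17996, 7959 and 6091 in the mandible (log2 fold change -0.73 ± 0.49, SE). AY036118, another noncoding gene, had 964, 1037 and 243 CPM in the femur and 336, 196 and 54.3 in the mandible (log2 fold change -2.01 ± 0.53, SE, edgeR, adjusted p = 1.00), with overlapping sites, and -1.38 in other kept cells. It passed the adjustment with the title number as a block and without the filter on low counts. The 13 mitochondrially encoded genes summed to 21272 to 41226 CPM in the femur and 25180 to 34040 in the mandible, against 6351 to 11145 in other kept cells. Of them 11 had a log2 fold change below 0, with a median of -0.32 against -0.01 over all genes. Only mt-Nd6, which was lower, had an unadjusted edgeR p under 0.05, where 2.19% of all genes tested were lower with such a p. Heat shock genes summed to 2491 to 4836 CPM, interferon response genes to 2259 to 3577 CPM and immediate early genes to 2623 to 3633 CPM, and the sites overlapped in each.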
